A study of Mus musculus with 31 samples.

Results

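A set of 10 long noncoding RNA genes of the brain, Malat1, Neat1, Meg3, Rian, Mirg, Miat, Snhg11, Gas5, Pantr1 and Dlx6os1, were followed in the basolateral amygdala (BLA) of 31 mice. They were picked by gene symbol and are 10 of the 48709 genes in the count table, and all 10 were among the 17428 genes with enough reads to be tested. RNA from both hemispheres of each mouse was sequenced by QuantSeq, a method that reads the 3′ ends of polyadenylated RNA. There were 16 wild-type (WT) mice, given as Control in the labels, and 15 mice that overexpress human CYFIP1 (CYFIP1 OE, CYFIP OE in the labels), all on a C57BL/6N background. The transgene is a bacterial artificial chromosome that carries the human gene, brought in by pronuclear injection, and the lines labelled 1 and 3 carry separate insertions of it. Line 1 had 8 WT mice aged 59 to 61 days and 7 CYFIP1 OE mice aged 59 to 77 days. Line 3 had 8 WT mice aged 58 to 60 days and 8 CYFIP1 OE mice aged 58 to 64 days, and each of the 4 groups held both sexes.

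Long noncoding RNAs are transcripts that are not translated into a conserved protein, and many stay in the nucleus or act near the place where they are made. Malat1 is concentrated in nuclear speckles, where splicing factors gather, and Neat1 is the scaffold of paraspeckles. Miat, also called Gomafu, is a nuclear RNA of neurons. Meg3, Rian and Mirg lie one after the other in the imprinted Dlk1-Dio3 domain and are made from the maternal chromosome, while Dlk1, Rtl1 and Dio3 in the same domain are made from the paternal one. Gas5 and Snhg11 are host genes whose introns hold small nucleolar RNAs. Pantr1 is transcribed next to the gene of the neuronal transcription factor Pou3f3, and Dlx6os1 (Evf2) runs antisense to Dlx6 in GABAergic cells.

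In GRCm38 coordinates of GENCODE M21, Meg3 lies at chr12:109541001-109571726 on the plus strand, with Rian at chr12:109603940-109661716 on the plus strand and Mirg at chr12:109729764-109749460 on the plus strand. Malat1 lies at chr19:5795690-5802672 on the minus strand and Neat1 at chr19:5824708-5845478 on the minus strand. Snhg11 lies at chr2:158375638-158386145 on the plus strand, Gas5 at chr1:161034422-161038539 on the plus strand and Miat at chr5:112213228-112229395 on the minus strand. Pantr1 lies at chr1:42590782-42694842 on the minus strand and Dlx6os1 at chr6:6820189-6871592 on the minus strand. A level here is summed over all annotated exons of a gene.

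Oligo(dT) primes at a poly(A) tail or at another stretch of A, and the reads come from the bases upstream of it. The ends of these transcripts therefore bear on what was counted. Some of the ends and internal stretches are shown here 5′ to 3′ from the GENCODE M21 transcripts of GRCm38. In the transcript ends the capitals mark the polyadenylation hexamer, AATAAA or ATTAAA, that lies closest to the end. In the end of the long Neat1 isoform and in the Malat1 tract the capitals mark the run of 11 bases that both share, and in the last sequence they mark a run of A.
Neat1-201 end, chr19:5824708-5824767, minus strand: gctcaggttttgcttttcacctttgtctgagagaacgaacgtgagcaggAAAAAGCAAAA
Neat1-202 end, chr19:5842307-5842366, minus strand: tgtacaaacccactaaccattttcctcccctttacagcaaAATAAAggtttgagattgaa
Malat1-201 tract, chr19:5795962-5796021, minus strand: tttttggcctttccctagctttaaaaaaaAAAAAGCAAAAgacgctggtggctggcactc
Malat1-201 end, chr19:5795690-5795749, minus strand: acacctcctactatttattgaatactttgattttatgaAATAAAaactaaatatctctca
Meg3 end, chr12:109571667-109571726, plus strand: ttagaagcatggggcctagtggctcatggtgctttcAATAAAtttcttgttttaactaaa
Miat-205 end, chr5:112213228-112213287, minus strand: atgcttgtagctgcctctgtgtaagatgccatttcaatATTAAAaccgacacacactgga
Snhg11-201 end, chr2:158386116-158386145, plus strand: gaaccacaaAATAAAcactgtcttccttaa
Rian-201 internal run, chr12:109652207-109652265, plus strand: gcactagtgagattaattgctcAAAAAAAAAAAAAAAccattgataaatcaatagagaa

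The long isoform of Neat1 ended in the shared run itself and had no hexamer in its last 60 bases, while the short isoform Neat1-202 had AATAAA starting 20 bases before its end. Mature Malat1 and long Neat1 are known to end not in a poly(A) tail but in an A-rich tract of this kind, folded into a triple helix, after RNase P has cut off a small tRNA-like RNA. In Malat1-201 the shared run occurred 1 time, with 292 annotated bases after it. The longest transcripts of 9 of the 10 members held AATAAA or ATTAAA on the transcript strand in their last 60 bases. Over all annotated transcripts of the members it was 51 of 102 (50%), with 4 of 20 for Rian and 4 of 11 for Meg3, beside 39.2% of all annotated long noncoding transcripts and 34.5% of all transcripts. A run of 15 A lay inside Rian and one of 12 inside Malat1, and a run of 12 or more was found in 5.3% of long noncoding transcripts. Which of these places gave the reads cannot be read from counts per gene. The spans of Meg3, Rian and Mirg hold 1, 3 and 14 annotated miRNA hairpins, whose small RNAs this method does not count.

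The mice had 5286708 to 8685308 counts each, with a median of 7387585. Mouse Cyfip1 had 34.95 CPM in the median WT mouse and 33.8 CPM in the median CYFIP1 OE mouse, a log2 difference of -0.02 (SE 0.08, adjusted p = 0.999, edgeR), which checks no label because the transgene is human. Of the markers of the labelled tissue, Slc17a7 ranged from 3.01 to 1109 CPM and Rspo2 from 0 to 16.1 CPM, and the summed level of 8 striatal projection neuron markers ranged from 271 to 6278 CPM, so that the marker levels differed widely between mice. CYFIP1 OE mouse 1 of line 3 stood apart from the others, with a connectivity Z-score of -4.74 where the median was 0.163. The stem of the mouse names gives 10 groups of 1 to 7 mice, and what a stem stands for is not stated. In line 1 the stem X426.B holds 7 of the 8 WT mice and no CYFIP1 OE mouse, so that stem and genotype cannot be told apart there. Stems with both genotypes held 18 mice, 16 of them in line 3.

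Meg3 was the highest of the 10 RNAs, with 3482 ± 973 CPM (the counts of a gene relative to all counts of the mouse, with TMM scaling, mean ± SD, n = 31), ahead of Malat1 with 1583 ± 424.2 and Snhg11 with 1103 ± 217. Together the 10 took 0.416% to 0.955% of the counts of a mouse. Meg3 exceeded Malat1 in 31 of 31 mice, and Malat1 exceeded Snhg11 in 29. Among all 9930 annotated long noncoding genes, Meg3 ranked 2 and Malat1 ranked 3 by counts. Rank 1 went to AY036118, which took 9.43% to 15.2% of all counts. The other 7 genes of the first 10 were Gm26723, Gm26549, Gm37376, Gm26905, A430018G15Rik, Gas5 and Cct6a, with Gas5 at rank 9. The ranking takes the long noncoding set of GENCODE M21 as it stands, Cct6a included. Whether a gene in it also codes for a protein was not examined. Snhg11 has no rank there because GENCODE M21 files it as protein coding.

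The remaining RNAs were lower. Gas5 had 239 ± 44 CPM and Rian 147 ± 30.7. Neat1 had 74.9 ± 31, Pantr1 52.6 ± 15.5, Miat 44.4 ± 23.5 and Mirg 31.5 ± 9.33. Dlx6os1 was the lowest at 8.51 ± 2.84 CPM, from 21 to 103 reads a mouse, so its values carry the most counting error. The order of Neat1, Pantr1, Miat and Mirg was not the same in every mouse. Neat1 exceeded Pantr1 in 24 of 31 mice, Pantr1 exceeded Miat in 18 and Miat exceeded Mirg in 21. Neighbours in it differed by 8.2 to 22.2 CPM in the mean, less than the larger of their SDs between mice. Per kilobase of annotated exon, the order changed at the top, with Malat1 at 227 CPM per kb, Meg3 at 192 and Snhg11 at 129, although reads from transcript ends do not scale with length. Neat1, whose long isoform sets its exon length, fell to rank 9 with 3.6 CPM per kb.

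**Figure D1:**
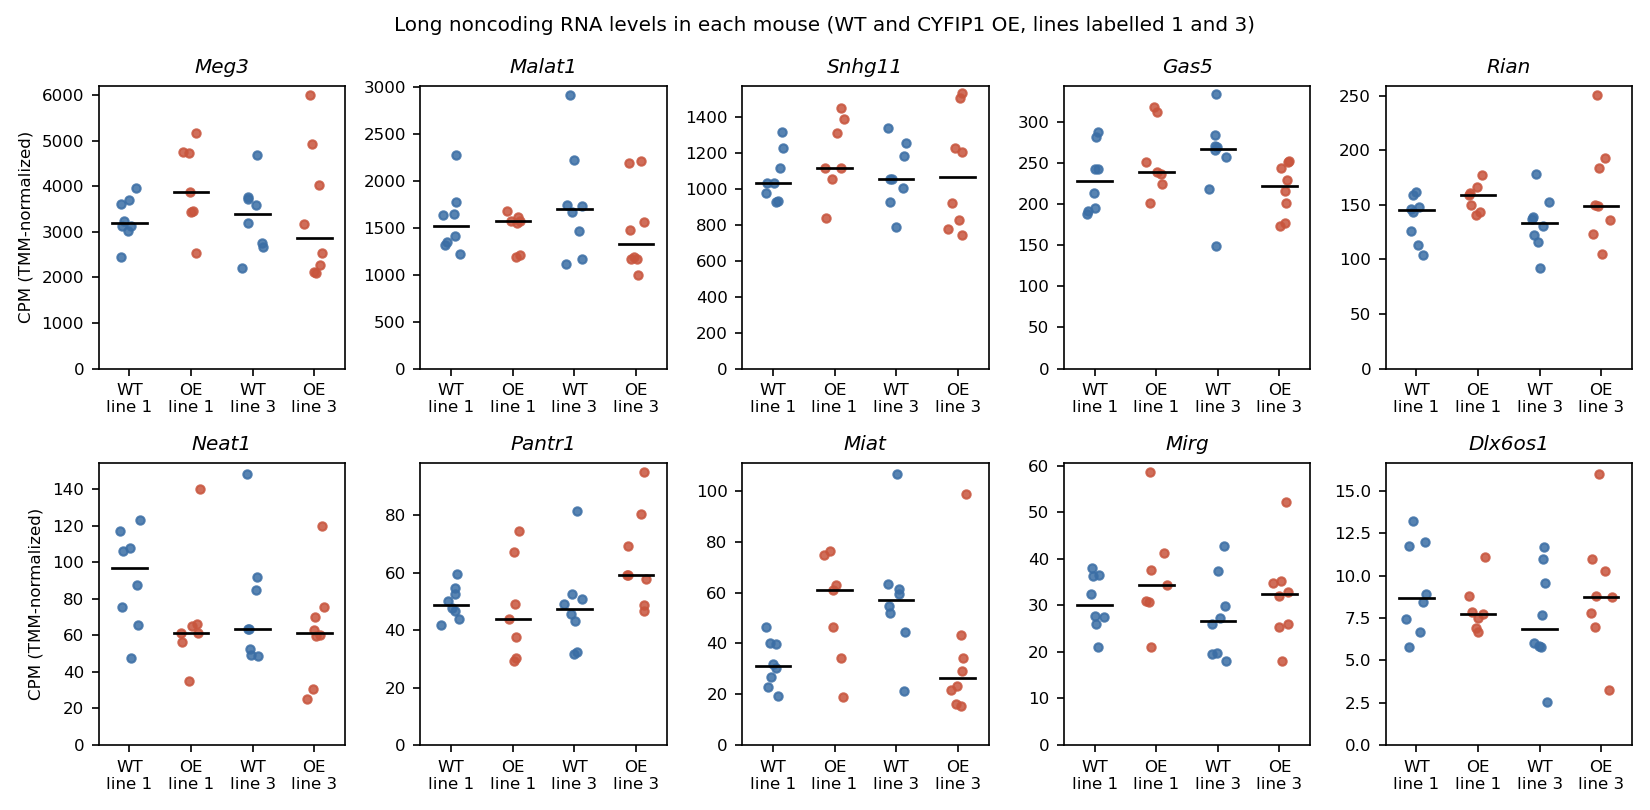
Level of each RNA in CPM after TMM scaling (vertical axis from 0) in the 4 groups of mice (horizontal axis), with a point for each mouse and a black line at the group median. WT and CYFIP1 OE mice overlapped in every panel and line, and Miat shows the medians crossing between lines (31.1 and 61.2 CPM in line 1, 57.1 and 26.2 CPM in line 3).

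Miat and Neat1 varied most between mice, with an SD of 52.8% and 41.4% of the mean. The highest mouse exceeded the lowest 6.88-fold for Miat, 6.31-fold for the low-count Dlx6os1 and 5.87-fold for Neat1, against 2.06-fold for Snhg11 and 2.24-fold for Gas5. In the fitted model the biological coefficient of variation of Miat was 0.482, where genes of its level have 0.246, and its ratio to that trend was at the 97.7th percentile of all genes tested. For Neat1 the coefficient was 0.367 with a trend of 0.244, at the 94.3rd percentile. Snhg11 was the steadiest against its trend, at the 24.2nd percentile, with Rian at the 35.7th and Gas5 at the 37th.

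No member passed an adjusted p under 0.05 for genotype, either over both lines or within a line. Over both lines 0 of 10 members were called by edgeR's quasi-likelihood test, as were 0% of the 17428 genes tested, and DESeq2 also called 0 of both. At an unadjusted p under 0.05 the count was 1 of 10 members, Rian, where 4.3% of all genes passed. The differences ranged from -0.31 for Neat1 to 0.23 for Rian on the log2 scale, and the median was 0.06 for the members and -0.01 for all genes. In 6 of the 10 the estimate was above 0. Within the 2947 annotated long noncoding genes tested, 0 were called and 3.19% had an unadjusted p under 0.05.

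Rian, from the middle of the imprinted domain, had the smallest p of the members over both lines. In line 1 it had 104, 145 and 162 CPM in the lowest, median and highest WT mouse and 141, 159 and 178 CPM in the CYFIP1 OE mice. In line 3 the WT mice had 92.4, 134 and 179 CPM and the CYFIP1 OE mice 105, 149 and 251 CPM. The groups overlapped in both lines, with 2 of 7 and 3 of 8 CYFIP1 OE mice above every WT mouse of their line. The difference was 0.23 on the log2 scale (SE 0.10, unadjusted p = 0.0269, adjusted p = 0.999). Without CYFIP1 OE mouse 1, which held the highest Rian value, it was 0.17 (adjusted p = 1.00), and without the TMM factor it was 0.10.

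Meg3 and Mirg, the other RNAs of the maternal side, had estimates of 0.13 (SE 0.12) and 0.22 (SE 0.14) over both lines, adjusted p = 0.999 for each. In line 1 Meg3 had 2449, 3187 and 3967 CPM in the lowest, median and highest WT mouse and 2538, 3866 and 5158 CPM in the CYFIP1 OE mice, of which 3 of 7 were above all WT mice. Of those 3, 2 were aged 77 days, and without the 4 mice of that age, all CYFIP1 OE of line 1, the line 1 difference went from 0.29 to 0.05 and that over both lines to 0.0024. In line 3 its WT mice had 2208, 3398 and 4692 CPM and its CYFIP1 OE mice 2088, 2860 and 6004 CPM. The CYFIP1 OE mice of line 3 thus spread past the WT range on both sides, with the highest value in CYFIP1 OE mouse 1. Mirg had medians of 30.1 and 34.4 CPM in WT and CYFIP1 OE mice of line 1 and 26.6 and 32.4 CPM in those of line 3. Of the genes made from the paternal chromosome, Dlk1, a membrane protein of the Notch ligand family, had an estimate of 0.41 (SE 0.31). By line it was 0.92 (SE 0.42, unadjusted p = 0.0369, adjusted p = 0.9999) in line 1 and -0.10 (SE 0.42) in line 3. The difference between the lines was -1.02 (SE 0.60, adjusted p = 0.693). Rtl1, derived from a retrotransposon, had 0.00 (SE 0.20). Dio3, which inactivates thyroid hormone, was near the floor at 0 to 7.35 CPM, with an estimate of 0.94 (SE 0.55). Of the 7 genes listed for the domain 6 were tested, and 0 were called in any comparison.

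**Figure D2:**
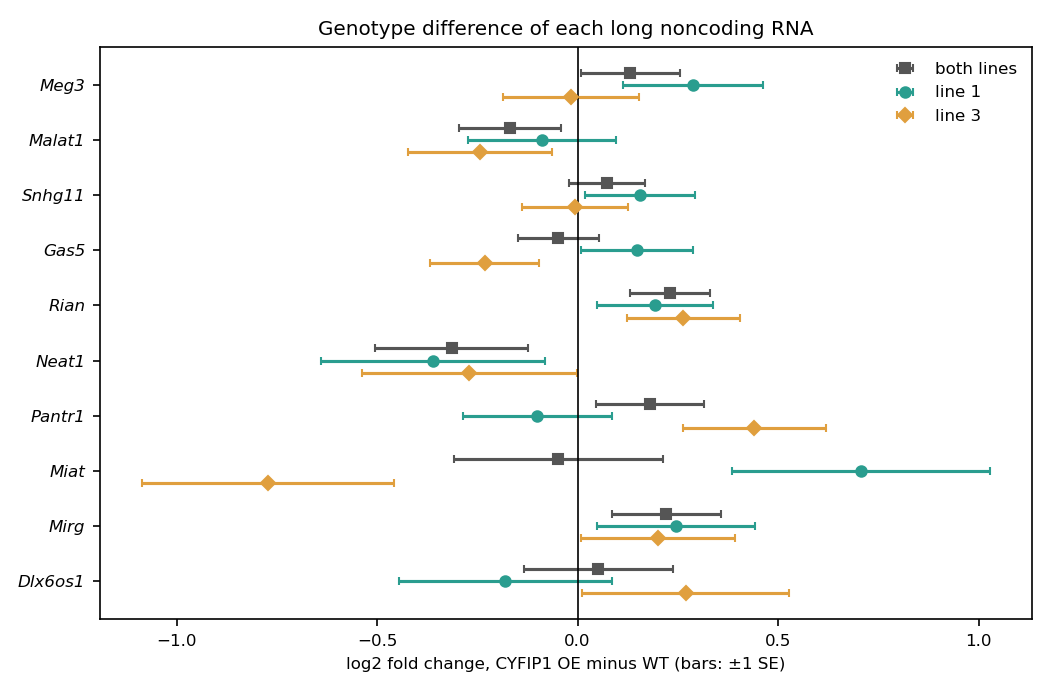
Log2 fold change of CYFIP1 OE over WT for each RNA (horizontal axis, 0 marked), from both lines together (squares), line 1 (circles) and line 3 (diamonds), with bars of 1 SE. Miat lies at 0.71 in line 1 and at -0.77 in line 3, and none of the points passed an adjusted p under 0.05.

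Miat had estimates of opposite sign in the 2 lines. In line 1 the WT mice had 19.2, 31.1 and 46.6 CPM as lowest, median and highest, and the CYFIP1 OE mice 18.8, 61.2 and 76.3 CPM. In line 3 the WT mice had 21.2, 57.1 and 107 CPM and the CYFIP1 OE mice 15.5, 26.2 and 98.7 CPM. In line 1, 4 of 7 CYFIP1 OE mice were above every WT mouse, and in line 3, 1 of 8 exceeded the median of WT. The difference was 0.71 (SE 0.32, unadjusted p = 0.0346, adjusted p = 1.00) in line 1 and -0.77 (SE 0.31, unadjusted p = 0.0193, adjusted p = 0.553) in line 3. The difference between the lines was -1.48 (SE 0.45, unadjusted p = 0.00225, adjusted p = 0.535), so it did not pass over all genes.

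Within line 1, 0 of 10 members and 0% of genes were called, with Miat the 1 member at an unadjusted p under 0.05 beside 3.96% of all genes. Within line 3, 0 of 10 and 0% were called, and Miat and Pantr1 had an unadjusted p under 0.05 beside 7.93% of all genes. For the difference between lines, 0 of 10 and 0% were called, and Miat and Pantr1 had an unadjusted p under 0.05 beside 8.1% of genes. DESeq2 called 0 members in these 3 comparisons and 2, 4 and 2 genes. The 1 mouse of line 3 with high Miat among the CYFIP1 OE animals was mouse 1. Without it the line 3 difference was -1.14 (SE 0.27, adjusted p = 0.260) and the difference between lines was -1.86 (adjusted p = 0.162). It was the only CYFIP1 OE mouse of the stem X424.C, whose 4 mice had 52.1 to 107 CPM. The 3 WT mice of that stem stayed in, and the part of the stem was not tested. Among the 18 mice of stems with both genotypes, the stem as a term gave a Miat difference over both lines of -0.36 (SE 0.37). With 5 surrogate variables the line 1 difference fell to 0.11 and that of line 3 to -0.43. Without the mice of the stem X605B.A the line 3 difference was -0.54 (SE 0.40).

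The striatal projection neuron markers had estimates of the opposite sign to Miat in both lines. Their 8 genes tested of 9 listed were below WT in line 1 in 8 of 8 cases, with a median of -0.73 on the log2 scale, and above WT in line 3 in 8 of 8, with a median of 0.68, and 0 of them were called. Their summed level was 3096 to 4386 CPM in WT and 761 to 4992 CPM in CYFIP1 OE mice of line 1, and 271 to 5614 CPM in WT and 314 to 6278 CPM in CYFIP1 OE mice of line 3, and none of the 8 was at 0 in any mouse. The part of these markers in the Miat differences was not tested. In bulk tissue, fewer cells of a type and less RNA per cell cannot be told apart.

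Pantr1 had similar medians in line 1, 48.8 CPM in WT (41.9 to 59.5) and 43.9 CPM in CYFIP1 OE mice (29.2 to 74.5), and the CYFIP1 OE mice spread past the WT range at both ends. In line 3 the WT median was 47.3 CPM (31.8 to 81.4) and the CYFIP1 OE median 59.3 CPM (46.5 to 95), and 7 of 8 CYFIP1 OE mice exceeded the median of WT. The line 3 difference was 0.44 (SE 0.18, unadjusted p = 0.0187, adjusted p = 0.552), and with 5 surrogate variables it was -0.04. The difference between lines was 0.54 (SE 0.26, unadjusted p = 0.0437, adjusted p = 0.601). Its neighbour Pou3f3 had 24.8 to 62.5 CPM over the 31 mice and differences of -0.15 (SE 0.15) in line 1 and 0.21 (SE 0.15) in line 3.

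Malat1 and Neat1 gave estimates below 0 in both lines. Malat1 had medians of 1525 CPM in WT (1223 to 2276) and 1570 CPM in CYFIP1 OE mice (1187 to 1678) of line 1, and 1704 CPM (1116 to 2919) and 1332 CPM (994 to 2211) in line 3. Its difference was -0.17 over both lines (SE 0.13, adjusted p = 0.999). Among the 18 mice of stems with both genotypes, with the stem as a term, it was -0.42 (SE 0.14, unadjusted p = 0.00793, adjusted p = 0.999). Without the stem X605B.A it was -0.06 over both lines and 0.0057 in line 3, and with age as a covariate it was 0.10 in line 1. Neat1 had medians of 96.9 and 61.3 CPM in WT and CYFIP1 OE mice of line 1 and 63.4 and 61.4 CPM in those of line 3. Its difference was -0.31 (SE 0.19, adjusted p = 0.999), and 1 of 7 and 3 of 8 CYFIP1 OE mice exceeded the median of WT in their line. With age as a covariate it was -0.48 (SE 0.21, unadjusted p = 0.0297, adjusted p = 0.992), and without the mice aged 77 days -0.45 (SE 0.21, unadjusted p = 0.0386, adjusted p = 0.996). The 8 oligodendrocyte markers were also below WT in 8 of 8 cases in each line, with medians of -0.41 and -0.19, and 0 were called. Of 8 paraspeckle and 8 nuclear speckle protein genes, 0 were called in any comparison, with medians of -0.09 and -0.02 for genotype.

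The snoRNA hosts gave small estimates. Snhg11 had medians of 1032 and 1119 CPM in WT and CYFIP1 OE mice of line 1 and 1055 and 1064 CPM in those of line 3, with a difference of 0.07 (SE 0.10) over both lines. An interval of 2 SE on each side runs from -0.12 to 0.26. Gas5 had medians of 228 and 239 CPM in line 1 and 267 and 222 CPM in line 3, where the WT median was exceeded by 0 of 8 CYFIP1 OE mice. Its differences were 0.15 (SE 0.14) in line 1 and -0.23 (SE 0.13) in line 3 (adjusted p = 0.688). Of 18 snoRNA hosts listed 14 were tested, and their median for genotype was -0.02, with 7 above and 7 below WT and 0 called.

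Dlx6os1 had medians of 8.71 and 7.71 CPM in WT and CYFIP1 OE mice of line 1 and 6.87 and 8.76 CPM in those of line 3. Its difference was 0.05 over both lines (SE 0.19, adjusted p = 0.999). Whether reads were counted by strand is not given in the sources used here, so that reads of Dlx6os1 and of the overlapping Dlx6 may not be told apart. Dlx6 itself had 10.4 to 35.9 CPM and a difference of 0.04 (SE 0.15). Dlx1, Dlx2 and Dlx5, transcription factors of the same family in GABAergic cells, had differences of 0.32 (SE 0.22), 0.19 (SE 0.25) and 0.35 (SE 0.26), and 0 of the 8 genes of that list were called. Dlx1 had 0.77 (SE 0.30, unadjusted p = 0.0140, adjusted p = 1.00) in line 1 and -0.10 (SE 0.29) in line 3, while Dlx5 had -0.15 (SE 0.35) in line 1 and 0.83 (SE 0.34, unadjusted p = 0.0214, adjusted p = 0.558) in line 3. The differences between the lines were -0.87 (adjusted p = 0.601) and 0.98 (adjusted p = 0.616).

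Sex and line gave no call among the members either. For sex 0 of 10 members were called beside 0.0631% of genes (11 of them, and 12 with DESeq2), and Meg3 and Snhg11 had an unadjusted p under 0.05 beside 4.62% of genes. Meg3 had 2088, 3074 and 4759 CPM in the lowest, median and highest female and 2449, 3767 and 6004 CPM in the males. Its difference, female minus male, was -0.38 (SE 0.12, unadjusted p = 0.00436, adjusted p = 0.970), and that of Snhg11 was -0.27 (SE 0.10, unadjusted p = 0.00797, adjusted p = 0.970). For line 0 of 10 members and 0% of genes were called, DESeq2 called 0 of both, and 0 members had an unadjusted p under 0.05 beside 3.31% of genes.

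The stem X605B.A bears on both RNAs. Its 6 mice, 2 WT and 4 CYFIP1 OE of line 3, had 2088 to 3176 CPM of Meg3 with a median of 2240, while the other stems of line 3 had medians of 3398, 3767 and 4024 CPM. Snhg11 in these mice had a median of 809 CPM, against 1055, 1118 and 1257 CPM. This stem was singled out after its values were seen. Without it the sex difference of Meg3 was -0.18 (SE 0.13) and that of Snhg11 was -0.13 (SE 0.10), and 5 of the 6 mice of the stem were female. Among the 18 mice of stems with both genotypes, with the stem as a term, the sex differences were -0.46 (SE 0.17) for Meg3 and -0.33 (SE 0.14) for Snhg11, adjusted p = 1.00 for both. With the stem X605B.A left out, the genotype difference of Meg3 in line 3 turned from -0.02 to 0.24 (adjusted p = 0.662). That of Rian in line 3 then went from 0.26 to 0.55 (SE 0.16, adjusted p = 0.141). With the stem as a term, the genotype differences over both lines were 0.05 (SE 0.16) for Meg3 and 0.24 (SE 0.17) for Rian.

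**Figure D3:**
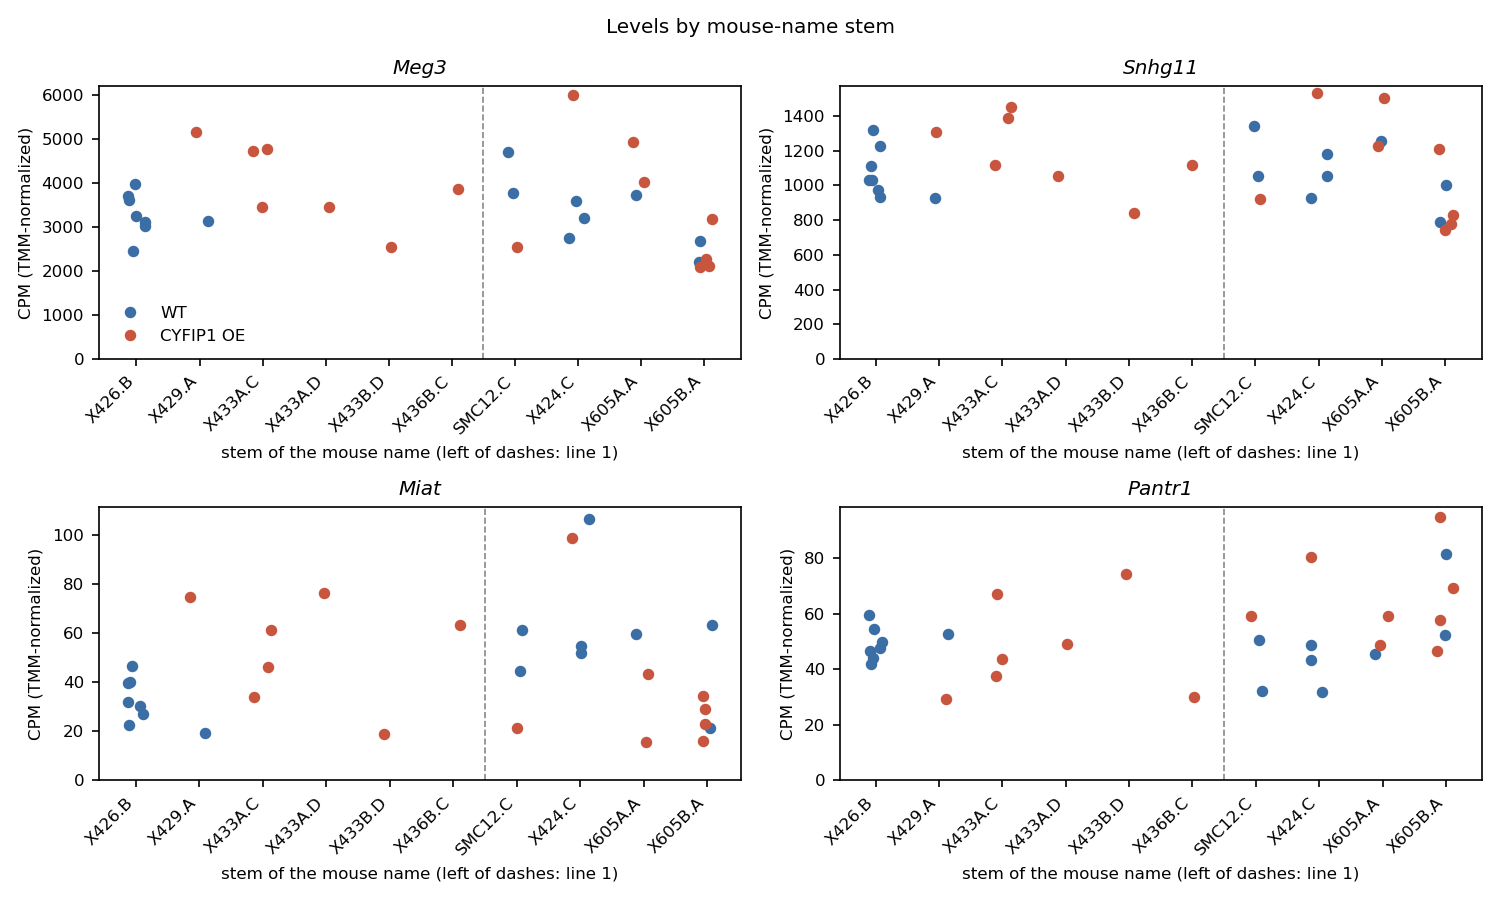
Level in CPM after TMM scaling (vertical axis from 0) of Meg3, Snhg11, Miat and Pantr1 in each mouse, by the stem of the mouse name (horizontal axis, line 1 left of the dashes), with WT in blue and CYFIP1 OE in red. The 6 mice of X605B.A lie low for Meg3 (2088 to 3176 CPM) and for Snhg11, and the 4 of X424.C lie high for Miat (52.1 to 107 CPM).

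Pairs of the RNAs were compared from mouse to mouse. After sex and line had been removed from log2 CPM, 9 of 45 pairs had a permutation p, adjusted over the 45, under 0.05, 7 with r above 0 and 2 with r below 0. The weakest of the 9 had an r of 0.476 in size, a size reached by 20% of the member pairs and, as a description, by 9.85% of all pairs of the 8465 tested genes with a mean of 10 CPM or more. The closest pair was Meg3 and Snhg11, on chromosomes 12 and 2, with r = 0.93 (rho = 0.93, n = 31, permutation p = 1e-05, the smallest the 100000 resamples can give, adjusted p = 0.00045). It held at r = 0.94 within line 1, 0.93 within line 3, 0.92 in WT and 0.94 in CYFIP1 OE mice, and r = 0.93 without the 2 mice farthest from the median of Meg3. As the mitochondrial share of the counts rose, Meg3 fell (r = -0.52, rho = -0.43, permutation p = 0.00255, adjusted p = 0.0255 over 40 pairs of a member and a library measure). By rho the adjusted permutation p was 0.063. The r of Meg3 with this share was -0.70 in line 1, -0.29 in line 3 and -0.34 without the 2 farthest mice. Snhg11 had r = -0.40 with that share (rho = -0.37, permutation p = 0.0227, adjusted p = 0.0908). The part of the mitochondrial share in the pair was not tested. Meg3 also followed its neighbour Rian (r = 0.66, rho = 0.58, permutation p = 6e-05, adjusted p = 0.00135), with r = 0.69 in line 1 and 0.67 in line 3, and r = 0.51 without the 2 farthest mice. Rian followed Snhg11 as well (r = 0.59, rho = 0.59, permutation p = 0.00029, adjusted p = 0.00349).

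Within the imprinted domain r ranged from 0.36 to 0.66, and the differences between these values were not tested. Meg3 and Mirg had r = 0.52 (rho = 0.45, permutation p = 0.00269, adjusted p = 0.0202), while Rian and Mirg, which are nearer to each other, had r = 0.36 (rho = 0.13, permutation p = 0.049, adjusted p = 0.130) and r = 0.07 without the 2 farthest mice. The call for Meg3 and Mirg was lost without CYFIP1 OE mouse 1 (adjusted p = 0.0803) and without the stem X605B.A (adjusted p = 0.0573). Mirg and Snhg11 had r = 0.51 (rho = 0.44, permutation p = 0.00318, adjusted p = 0.0204), and its call was lost in the same alternatives (adjusted p = 0.0803 without the mouse and 0.0573 without the stem).

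Gas5 had 1 called pair. Rian and Gas5 had r = -0.61 (rho = -0.56, permutation p = 0.00031, adjusted p = 0.00349), with r = -0.37 in line 1, -0.73 in line 3 and -0.47 without the 2 farthest mice. Rian rose with Akap5 (r = 0.72, rho = 0.65, permutation p = 1e-05, adjusted p = 4e-04 over 40 pairs of a member and a library measure), a gene that took 7.71% to 19.2% of the counts of a mouse, and with AY036118 (r = 0.56, adjusted p = 0.0129). The part of these 2 abundant genes in the pair was not tested, and with library sizes counted without all genes over 1% of reads the pair had an adjusted p of 0.00315.

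Miat had called pairs of both signs. It had r = 0.56 with Meg3 (rho = 0.58, permutation p = 0.00126, adjusted p = 0.0113), r = 0.49 with Snhg11 (rho = 0.53, permutation p = 0.00508, adjusted p = 0.0286) and r = -0.48 with Pantr1 (rho = -0.56, permutation p = 0.00696, adjusted p = 0.0348). These 3 calls were lost without the stem X605B.A (adjusted p = 0.0682, 0.0955 and 0.197), that with Snhg11 also without CYFIP1 OE mouse 1 (adjusted p = 0.0803), and that with Pantr1 without the mice aged 77 days (adjusted p = 0.0868). Here and for the other pairs, leaving mice out lowers n, so a call can be lost without a lower r. Malat1 and Neat1, neighbours on chromosome 19, had r = 0.03 with each other. The pairs of Meg3 with Snhg11 and Rian, and of Rian with Snhg11 and Gas5, kept an adjusted p under 0.05 in all 9 alternatives.

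**Figure D4:**
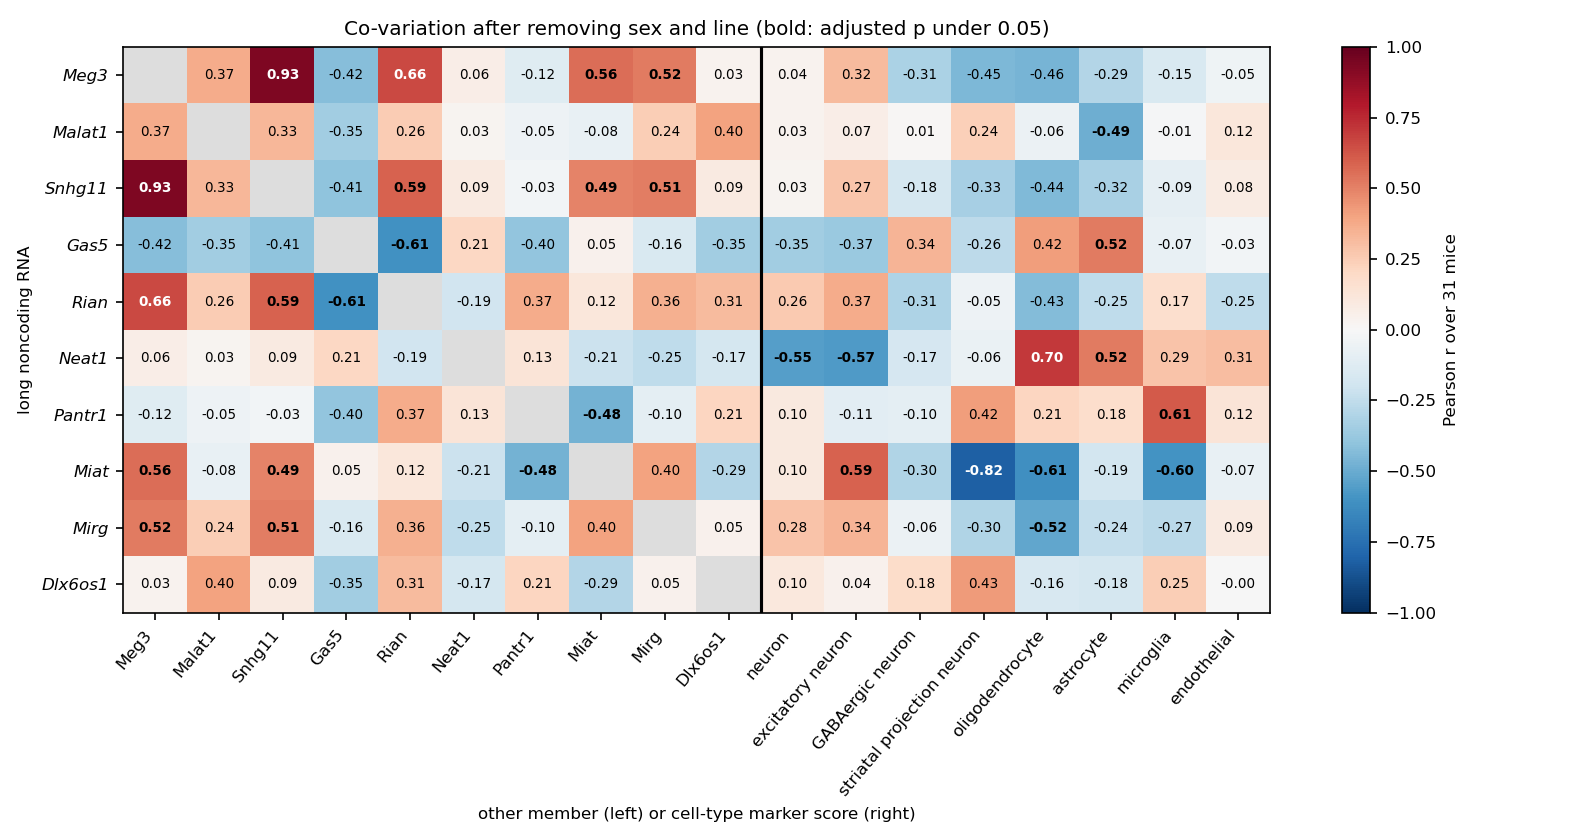
Pearson r over 31 mice (colour scale from -1 to 1, value printed in each cell) between each RNA (rows) and the other RNAs or the 8 cell-type marker scores (columns right of the black line), with sex and line removed and bold type for an adjusted p under 0.05. The pairs among Meg3, Snhg11, Rian and Mirg all have positive values, from 0.36 for Rian and Mirg to 0.93 for Meg3 and Snhg11. Miat against the striatal score is the strongest negative value at -0.82.

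Cell-type markers were compared as a mean standardized log2 CPM over each list, and 12 of 80 pairs of an RNA and a score had an adjusted p under 0.05. How many of all tested genes reach such an r with these scores was not counted. The calls are therefore not shown to be particular to these RNAs. Miat fell as the striatal projection neuron score rose (r = -0.82, rho = -0.87, permutation p = 1e-05, adjusted p = 8e-04), with r = -0.77 in line 1, -0.84 in line 3, -0.73 in WT and -0.89 in CYFIP1 OE mice, and -0.76 without the 2 mice farthest from the median of Miat. It rose with the excitatory neuron score (r = 0.59, rho = 0.58, permutation p = 0.00061, adjusted p = 0.00813). It also fell as the oligodendrocyte score (r = -0.61, rho = -0.66) and the microglia score (r = -0.60, rho = -0.59) rose, with a permutation p of 0.00031 and 0.00032 and an adjusted p of 0.0056 for both. The mitochondrial share of the counts was lower where Miat was higher (r = -0.65, rho = -0.67, permutation p = 0.00012, adjusted p = 0.0024 over the 40 library measures).

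Neat1 rose with the oligodendrocyte and astrocyte scores. It had r = 0.70 with the oligodendrocyte score (rho = 0.69, permutation p = 3e-05, adjusted p = 0.0012), with 0.80 in line 1 and 0.62 in line 3, and r = 0.52 with the astrocyte score (rho = 0.55, permutation p = 0.00272, adjusted p = 0.0214). With the microglia score it had r = 0.29 (rho = 0.27, permutation p = 0.119, adjusted p = 0.279). Against the neuron and excitatory neuron scores it had r = -0.55 and -0.57 (rho = -0.55 and -0.52, permutation p = 0.0014 and 0.00095, adjusted p = 0.014 and 0.0109). Malat1, the other nuclear body RNA, had r = -0.06 with the oligodendrocyte score and -0.49 with the astrocyte score (rho = -0.44, permutation p = 0.00585, adjusted p = 0.039), a call that was lost in 5 alternatives.

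The remaining calls were single ones. Gas5 rose with the astrocyte score (r = 0.52, rho = 0.52, permutation p = 0.00286, adjusted p = 0.0214) and Pantr1 with the microglia score (r = 0.61, rho = 0.66, permutation p = 0.00035, adjusted p = 0.0056). Pantr1 also rose with the library measures Akap5 (r = 0.50, rho = 0.48, permutation p = 0.00393, adjusted p = 0.0314) and AY036118 (r = 0.49, rho = 0.49, permutation p = 0.00528, adjusted p = 0.0352), and their part was not tested. With the striatal score Pantr1 had r = 0.42 (permutation p = 0.019, adjusted p = 0.0834), so it was not called by r. Its rho there was 0.60 (permutation p = 0.00051, adjusted p = 0.0068), and r was 0.84 in line 1 and 0.22 in line 3. Mirg fell as the oligodendrocyte score rose (r = -0.52, rho = -0.50, permutation p = 0.00295, adjusted p = 0.0214), a call lost without CYFIP1 OE mouse 1 (adjusted p = 0.0596) and without covariates (adjusted p = 0.0828). Meg3 had r = -0.46 with the oligodendrocyte score (rho = -0.48, permutation p = 0.00866, adjusted p = 0.0533) and 0.04 with the neuron score. With the striatal score Meg3 had r = -0.45 (permutation p = 0.00945, adjusted p = 0.054) and rho = -0.49 (adjusted permutation p = 0.0336). Its r with the excitatory neuron score was 0.32 (permutation p = 0.0859, adjusted p = 0.2455). Dlx6os1 had r = 0.18 with the GABAergic neuron score and 0.43 with the striatal score (rho = 0.47, permutation p = 0.0187, adjusted p = 0.0834). Except for the 2 calls lost in named alternatives, the other 10 of the 12 kept an adjusted p under 0.05 in all 9.

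**Figure D5:**
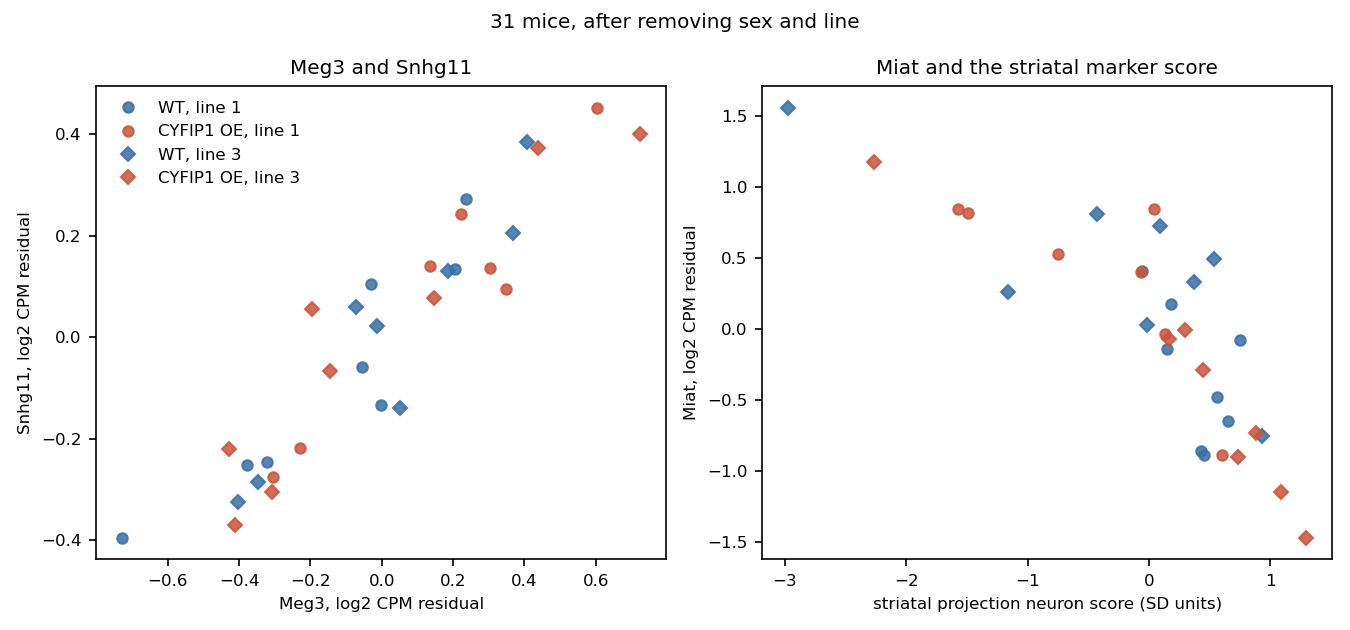
Each point is 1 of 31 mice after sex and line were removed, circles for line 1, diamonds for line 3, blue for WT and red for CYFIP1 OE. Left, Snhg11 against Meg3 (log2 CPM residuals, r = 0.93), and right, Miat (log2 CPM residual) against the striatal projection neuron score (r = -0.82), where the 2 mice of lowest score have the highest Miat.

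The genes most like each RNA across the mice were taken from 8465 tested genes with a mean of 10 CPM or more, as a description without a test. The nearest to Meg3 was Snhg11 and the nearest to Snhg11 was Meg3 (r = 0.93 over 31 mice). Next to Meg3 came Gm43847 and A230103L15Rik (r = 0.83 and 0.80), and next to Snhg11 came E030030I06Rik and Gm45179 (r = 0.76 and 0.75). Miat was nearest to Gprin1, Nr2f1 and Slit1 (r = 0.89 for each), of which Nr2f1 is a transcription factor of cortical patterning and Slit1 an axon guidance cue. Neat1 was nearest to the long noncoding RNA Sox2ot (r = 0.85), then Tmem63a (0.83) and Fnbp1 (0.82). Gas5 was nearest to Bin1, Gja1 and Atp1b3 (r = 0.82, 0.82 and 0.80), where Gja1 is the gap junction protein of astrocytes and is itself in the astrocyte list.

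Malat1 was nearest to Gm42927, Gm28268 and Arid4b (r = 0.83, 0.81 and 0.81). Rian was nearest to Gm25072, an unnamed gene and Tfe3 (r = 0.84, 0.81 and 0.80), and Pantr1 to mt-Co3, Akt2 and Btbd17 (r = 0.81, 0.81 and 0.80). Mirg was nearest to 9930111J21Rik2, Nop58 and Gm37761 (r = 0.74, 0.67 and 0.66), the weakest likeness of the 10, and Nop58 is a core protein of box C/D snoRNPs. Dlx6os1 was nearest to Helz, Rc3h2 and Robo2 (r = 0.76, 0.74 and 0.72).

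Of 20 further long noncoding RNAs listed, 15 were tested, and 0 of them were called for genotype in both lines together or in either line. At an unadjusted p under 0.05 (edgeR), 2 of the 15 passed over both lines, both above WT, beside 4.3% of all genes. In line 1 it was 0 beside 3.96% of genes, and in line 3 it was 2, both above WT, beside 7.93%. The median genotype difference was -0.07 over that list, with 6 above and 9 below WT. For sex 1 was called, Xist, the RNA of the inactive X chromosome, which was 4.99 higher in females on the log2 scale (SE 0.26, adjusted p = 2.17e-16).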

How the data were processed

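Reads were mapped by the authors with STAR to GRCm38 and quantified with Salmon, and the authors deposited 1 table of expected counts per mouse, neither normalized nor filtered (the versions are not given in the sources used here). Depth ranged from 5286708 to 8685308 counts, so genes with few reads are the least precise. The counts were rounded and named with GENCODE M21, which held a record for 48349 of 48709 identifiers. A gene was kept where 10 or more reads fell on it in 20% of mice or more, and was tested with edgeR 4.0.16 (R 4.3.3, TMM, two-sided quasi-likelihood F test, Benjamini-Hochberg over all genes). One model had sex, line and genotype. The other had each line and genotype combination and sex, and gave the differences within lines and between them. Correlations used log2 CPM (prior count 2) with sex and line removed and 100000 two-sided permutations of the mice.

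Each mouse was 1 replicate, and mice that share a name stem may not be independent. Members and gene lists were chosen with earlier results of these data known. Genes named one by one were the 10 members, the 3 genes with the highest r to each among those of mean CPM 10 or more, genes of the lists with an adjusted p under 0.05, neighbours of the members, and the 10 highest annotated long noncoding genes. Alternatives used DESeq2 1.42.0 and sva 3.50.0 and are given at the end. Simulated data with known changes were used to test the scripts. No authors' fold changes or p-values were used.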

Additional observations from a re-analysis of the deposited data

Results flagged for a closer look

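In 4 of 40 groups (10 RNAs in 4 groups of mice), a mouse lay farther from the others than Dixon's 95% limit, where chance gives about 5% of groups. Neat1 was 140 CPM in 1 CYFIP1 OE mouse of line 1, whose nearest was 65.95, and 148 CPM in 1 WT mouse of line 3, whose nearest was 92.1. Miat was 98.7 CPM in CYFIP1 OE mouse 1 of line 3, whose nearest was 43.4. Pantr1 was 81.4 CPM in 1 WT mouse of line 3, whose nearest was 52.4, a mouse of the stem X605B.A.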

How the results depend on the processing

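No member was called in any comparison that an alternative could give. The stem as a term gave genotype and sex only, and each line fitted alone gave the differences within lines only. The alternatives without the genes over 1% of reads in the library sizes and without the stem X605B.A were chosen after seeing the data. Genes called in all moved from 0 to 3 for genotype and to 1 in line 1 with 5 surrogate variables, to 2 in line 1, 4 in line 3 and 2 for the difference between lines with DESeq2, to 2 for line, 2 in line 3 and 2 for the difference between lines with no filter on low counts, and to 40 in line 3 without X605B.A. For sex they went from 11 to 5 with the stem as a term. The causes were not tested. Member pairs called went from 9 to 5 without X605B.A.

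Signs were followed for the genotype differences of the 10 members over both lines and within each line, for Miat and Pantr1 between lines, and for Meg3 and Snhg11 by sex. Without the TMM factor the median of all genes shifted to -0.13 for genotype and to -0.22 in line 3, and Meg3 (-0.0087), Snhg11 (-0.06) and Dlx6os1 (-0.0484) for genotype and Mirg (-0.0297) in line 3 changed sign, all above that shift. With age as a covariate the sign changed for Snhg11 over both lines (-0.0209) and in line 1 (-0.0324) and for Malat1 in line 1 (0.10). Without the 4 mice aged 77 days it changed for Snhg11 over both lines (-0.0327) and, in line 1, for Snhg11 (-0.0789), Malat1 (0.0177) and Pantr1 (0.0488). With 5 surrogate variables it changed for Gas5 (0.00091) and Dlx6os1 (-0.0539) over both lines, Mirg (-0.00061) and Pantr1 (0.0854) in line 1, Meg3 (0.0682), Snhg11 (0.0346) and Pantr1 (-0.0351) in line 3, and Pantr1 between the lines (-0.12). Without X605B.A it changed for Miat over both lines (0.26) and, in line 3, for Malat1 (0.0057), Meg3 (0.24) and Snhg11 (0.17). Snhg11 in line 3 was 0.00085 with relative log expression scaling, 0.00089 with DESeq2 and 0.0036 with library sizes without Malat1 and mitochondrial genes. The other 380 of these values kept their sign. Values of other members between lines and by sex also changed sign. With 5 surrogate variables, Mirg between lines went from -0.04 to 0.30 and Neat1 by sex from -0.24 to 0.0492.

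No paired analysis was possible because the numbers in the mouse names do not pair WT with CYFIP1 OE mice. Depth limits Dlx6os1 most, and the 7 or 8 mice in a group leave SEs of 0.13 to 0.32 within a line.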
